A study of Homo sapiens with 27 samples.

Results

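SLC5A3 encodes the sodium/myo-inositol cotransporter SMIT1, and its mRNA is 1 of the 34464 genes of the FPKM table and 1 of the 14611 that passed the filter of a mean above 1 FPKM (fragments scaled by transcript length and library size). The row was found by its Ensembl ID, ENSG00000198743. The gene was chosen by its nuclear to cytoplasmic (N/C) ratio, which appeared to fall after depletion of TPR once 1 control culture was left out. The nuclear and cytoplasmic/ER values and every ratio made from them are therefore given as a description, with no test, and the total fraction, which did not enter that choice, was tested.

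The study asked which mRNAs need TPR, a protein of the basket of the nuclear pore, to leave the nucleus. The cells were U2OS, an established line from a human bone tumour (osteosarcoma), and carried either a control shRNA or TPR A or TPR D, both lentivirus-delivered shRNAs against TPR, with 5 days of depletion per the study's methods. A part of the cells was set aside as the total fraction and the rest was split with detergent into a nuclear and a cytoplasmic/ER fraction, and poly(A)+ RNA was sequenced. There were 3 replicates of each shRNA and fraction, in all 27 libraries from 9 cultures. All cultures are of 1 cell line and carry an shRNA, and no untreated cells were analysed here.

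Myo-inositol is both a precursor of the inositol lipids and phosphates used in signalling and a compatible osmolyte, which cells take up to hold water when their surroundings become hypertonic. SLC5A3 carries it inward together with sodium ions. Its transcription is known to be raised by NFAT5, the tonicity-responsive transcription factor. The mRNA is also of an unusual build, with nearly all of its length in a single exon, which makes it of interest in a study of how few introns and transcript length bear on export.

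On GRCh37 (GENCODE 44 lifted over), SLC5A3 occupies chr21:35445878-35478559 on the + strand, with 2 exons of 168 and 11398 nt that are separated by an intron of 21116 nt. The mRNA is 11566 nt long. The 718 codons lie in exon 2 alone, and the 3′ UTR takes 8908 nt, or 77.0% of the mRNA. Exon 1 is shared with MRPS6, a protein of the small mitochondrial ribosomal subunit. The span of MRPS6 (chr21:35445524-35515334) encloses all of SLC5A3, and a lncRNA, ENSG00000272657, also overlaps it.

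The splice sites show how 1 first exon serves both mRNAs, and are printed for that reason. All are on the + strand of GRCh37, with bases of an exon in capitals and bases of an intron in lower case. The windows lie at chr21:35446036-35446065, chr21:35467142-35467171 and chr21:35497621-35497650.
Shared 5′ splice site after exon 1: CATGCAGCGGgtaagtgaccttccctcaga
3′ splice site before SLC5A3 exon 2: ttgtctctgctgccttgcagGGTTGGTACA
3′ splice site before MRPS6 exon 2: aaaaacacaaacaaaaacagCCAGAGACTG
The same donor is thus joined either to the acceptor of SLC5A3 or, further along the chromosome, to that of MRPS6. The start of the SLC5A3 coding sequence, at chr21:35467498-35467527, is shown next with the start codon in capitals, since it lies inside exon 2, past the shared exon.
SLC5A3 coding start: ATGagagctgtactggacacagcagacatt

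Because exons are shared, reads from exon 1 cannot be told apart between the genes. Of the 11536 words of 31 bases in the SLC5A3 mRNA, 189 (1.64%) also occur in a transcript of another gene of GENCODE 44. All 189 occur in MRPS6, and 124 also in ENSG00000272657. In exon 2, 50 of 11368 words are shared. Most of the SLC5A3 mRNA is thus distinct in that annotation. The authors quantified against GENCODE 19, which was not used here.

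TPR itself checks the labels of the knockdown. Its total FPKM was 28.2, 25.7 and 25.3 in control replicates 1 to 3, against 4.36, 3.44 and 4.70 with TPR A and 3.23, 4.74 and 6.01 with TPR D. The nuclear values were 28.1, 31.9 and 29.8 in control, 2.40, 1.64 and 2.35 with TPR A, and 3.15, 1.71 and 2.65 with TPR D. In the cytoplasmic/ER fraction TPR stood at 2.97, 2.26 and 3.66 in control, 0.445, 0.132 and 0.689 with TPR A, and 0.538, 0.185 and 0.518 with TPR D. Every TPR-depleted library was below every control library of its fraction. The change in the total fraction was a log2 difference of -2.59 (SE 0.36) for TPR A and -2.44 (SE 0.36) for TPR D, with limma adjusted p of 0.00120 and 0.00160.

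Of the bone and mesenchymal genes used to check the cell line, RUNX2 (6.25 to 25.1 FPKM), SPARC (269 to 949), COL1A1 (20.6 to 87.5), ALPL (1.02 to 15.97) and VIM (854 to 2662) were present throughout, while COL1A2 was near absent (0.0302 to 0.744). The nuclear lncRNAs MALAT1 and NEAT1 gave a mixed check of the fractions. Their median FPKM was 23.0 and 38.4 in the nuclear libraries, above 9.05 and 8.84 in the cytoplasmic/ER ones. In the total libraries, however, it was higher still, at 122 and 106, and the cause was not tested. Control replicate 2 went against its labels. Mitochondrial mRNAs made up 21.8% of the summed FPKM in its nuclear library, against 0.774% to 2.42% in the other nuclear libraries, and 0.738% in its total library, against 15.8% to 24.7% in the other total libraries. By its expression over all genes, its nuclear library was closer to the total libraries (r of 0.977) than to the nuclear ones (0.944), and its total library closer to the nuclear (0.973) than to the total ones (0.940). Whether the 2 libraries were exchanged was not tested. The labels were kept, and values without this culture are given for SLC5A3, TPR, the gene lists and the named genes whose call it touches. Without it TPR changed by -2.64 (TPR A) and -2.50 (TPR D) on the log2 scale, with limma adjusted p of 0.00798 and 0.0116. The low values of the table could be read as whole reads, and by that estimate 1 FPKM on 1 kb of mRNA stood for 31.6 to 87.0 reads.

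SLC5A3 was a low mRNA in every library, and it was lower in the cytoplasmic/ER fraction than in the nuclear and total fractions of each culture. In the nuclear fraction it stood at 4.65, 6.15 and 5.06 FPKM in control replicates 1 to 3, at 2.17, 1.64 and 2.17 with TPR A, and at 4.63, 2.29 and 3.63 with TPR D. All 6 TPR-depleted nuclear libraries were below all 3 control ones, with TPR D replicate 1 only just below control replicate 1. Over all tested genes 3.49% showed that order, and since the nuclear level is part of what the gene was chosen by, nothing is read from it. Without control replicate 2, the order of the remaining libraries was the same. The order rests on the labels of that culture as given, since its total library, the one closest to the nuclear libraries, held 3.01 FPKM, below 2 of the TPR D nuclear values.

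In the cytoplasmic/ER fraction SLC5A3 was listed at 0 in control replicates 1 and 2 and at 1.80 FPKM in control replicate 3. With TPR A it stood at 0.825, 0.455 and 1.06 FPKM, and with TPR D at 1.08, 0.686 and 1.05. The 6 TPR-depleted libraries thus lay above 2 of the control libraries and below the third. The control values spanned the whole range of the fraction, and no mean is given for them.

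In the total fraction it stood at 6.34, 3.01 and 5.36 FPKM in control, at 2.55, 2.57 and 3.50 with TPR A, and at 4.30, 4.10 and 5.42 with TPR D. The lowest control value was that of replicate 2, the library that was closest to the nuclear ones over all genes, while its nuclear library, closest to the total ones, held 6.15 FPKM. The TPR A libraries overlapped the control ones only through that library. The TPR D libraries lay within the control range, but replicates 1 and 2 of them did so only through that library too. Beside control replicates 1 and 3 alone, TPR D replicates 1 and 2 lay below both and replicate 3 lay between them.

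**Figure D1:**
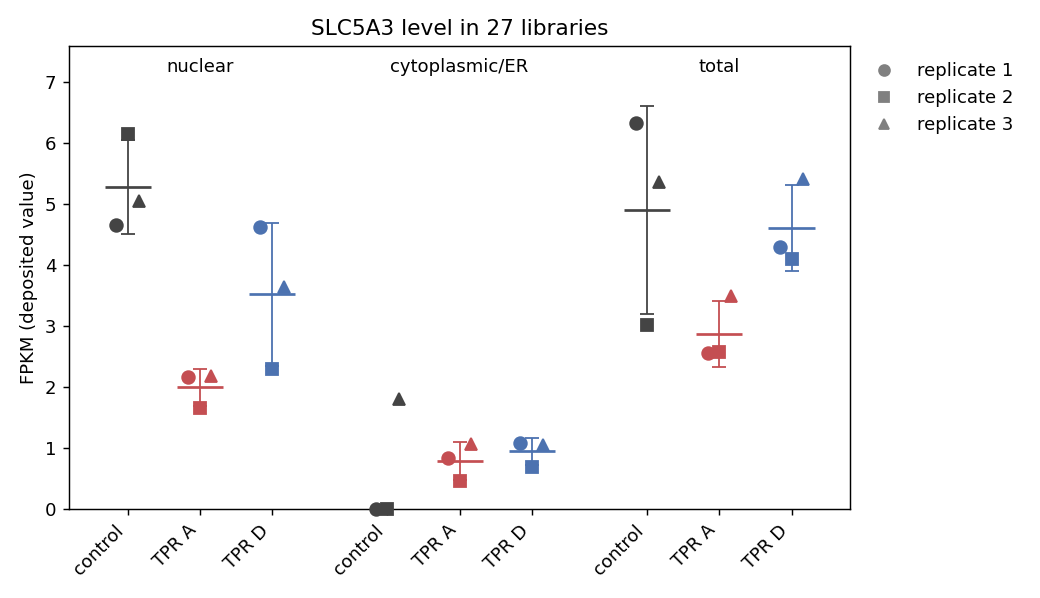
SLC5A3 FPKM as deposited (y axis) in the 27 libraries, grouped by fraction and shRNA (x axis), with 1 point per library, a horizontal line at the mean and bars of 1 SD (n = 3). No mean is drawn for the control cytoplasmic/ER group, where 2 libraries sit at 0 and the third at 1.80, above all 6 TPR-depleted libraries.

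Ordered by mean, the groups ran from control nuclear (5.29 ± 0.77 FPKM, SD, n = 3) through control total (4.91 ± 1.71), TPR D total (4.61 ± 0.71), TPR D nuclear (3.52 ± 1.18), TPR A total (2.87 ± 0.54), TPR A nuclear (1.995 ± 0.303) and TPR D cytoplasmic/ER (0.939 ± 0.220) to TPR A cytoplasmic/ER (0.781 ± 0.306). Without replicate 2 the control means were 4.86 FPKM in the nuclear and 5.85 in the total fraction, so these groups changed places. Each neighbouring pair in the first order overlapped in range, except TPR A total with TPR A nuclear and TPR A nuclear with TPR D cytoplasmic/ER. An FPKM is a share of its own library, so these levels do not say how much SLC5A3 mRNA each compartment held per cell. Fewer cells expressing it and less RNA per cell cannot be told apart either.

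The N/C ratio by culture shows what the change rests on. In control replicate 3, the only control culture with a value in both fractions, the nuclear FPKM was 2.80 times the cytoplasmic/ER FPKM. With TPR A the ratio was 2.62, 3.62 and 2.05 in replicates 1 to 3, and with TPR D it was 4.27, 3.34 and 3.47. Control replicate 3 lay within the range of the TPR-depleted cultures, above 2 of them and below 4. For control replicates 1 and 2 no ratio can be given, since the denominator is listed at 0.

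**Figure D2:**
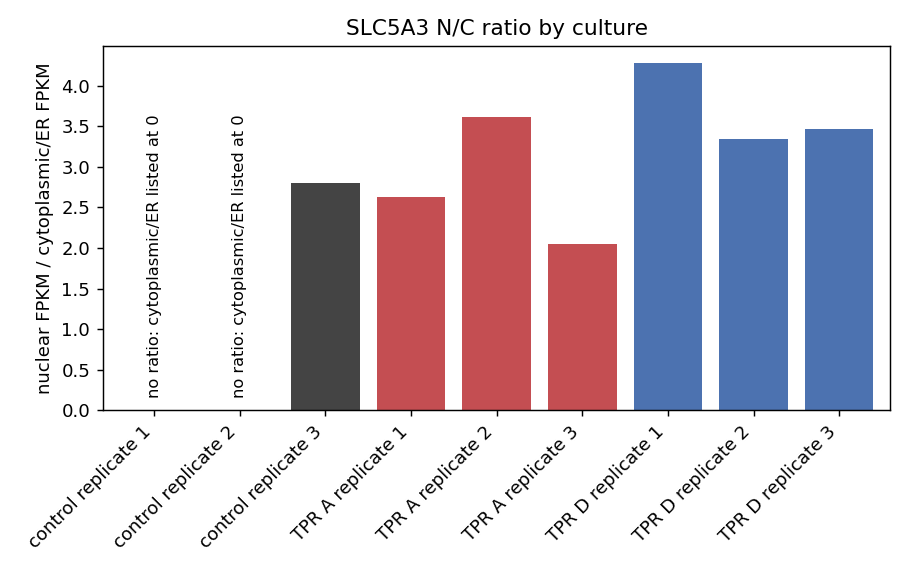
SLC5A3 N/C ratio, the nuclear FPKM divided by the cytoplasmic/ER FPKM (y axis, linear), in each of the 9 cultures (x axis), with 1 bar per culture and no error since each is a single ratio. The 7 cultures with a ratio lie between 2.05 and 4.27, and the 2 control cultures without one are marked.

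On the log2(FPKM + 0.1) scale, where a 0 takes the value of the pseudocount, TPR A gave a fitted N/C change of -3.002, TPR D one of -2.53, and their mean was -2.77. It depended on that pseudocount, at -1.16 for both with a pseudocount of 1 and -4.87 with 0.01. With control replicates 1 and 2 left out, the change was -0.16 with TPR A, 0.32 with TPR D and 0.08 over both. Without control replicate 2 alone it was -1.95 for both, and without control replicate 3 alone it was -4.19. The size and the sign of the fitted value thus depended on the 2 control cultures whose cytoplasmic/ER libraries listed SLC5A3 at 0, and the only other control culture is a single one. As background over all 14611 genes, from which nothing is read for SLC5A3, limma called 0% for the N/C change of both shRNAs, with 1.72% at an unadjusted p under 0.05.

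The nuclear to total ratio, in which no library was at 0, was 0.734, 2.04 and 0.944 in control replicates 1 to 3, 0.849, 0.641 and 0.622 with TPR A, and 1.08, 0.558 and 0.670 with TPR D. Control replicate 2, with both libraries against their labels, stood apart, and the other 2 control cultures lay within the range of the TPR-depleted ones. The cytoplasmic/ER to total ratio was 0.336 in control replicate 3, 0.323, 0.177 and 0.304 with TPR A, and 0.252, 0.167 and 0.194 with TPR D. Control replicate 3 was the highest of these 7 cultures, though it differed little from TPR A replicate 1.

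The values of 0 were set against the depth and against other genes. At the estimated depth of control cytoplasmic/ER replicates 1 and 2, 3 reads on SLC5A3 would have given 0.00815 and 0.00838 FPKM, while the estimated reads on it were 805 in control replicate 3 and 182 to 584 in the TPR-depleted cytoplasmic/ER libraries. The deposited values are estimates by transcript and not counts of reads, so a 0 says only that the gene was listed at 0.

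Of the 14611 tested genes, 334 (2.29%) were listed at 0 in some library, and 53 (0.363%) in both of these control libraries. Of those 53, 20 were above 1 FPKM in control cytoplasmic/ER replicate 3. Many of the 20 were lncRNAs, a snoRNA or unnamed genes, such as LINC02768 (16.9 FPKM in control replicate 3) and SNORA71B (4.53 FPKM). SLC5A3 was the only gene at 0 in these 2 libraries and in no other library. Among the 1276 tested protein-coding genes with a median mRNA of at least 5000 nt, SLC5A3 was the only one listed at 0 in any library. The cause was not tested.

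MRPS6, which shares the first exon, did not follow it. Its cytoplasmic/ER FPKM was 138, 149 and 97.8 in control, 70.0, 111 and 94.4 with TPR A, and 76.0, 162 and 114 with TPR D. It was therefore well measured in both control libraries in which SLC5A3 was listed at 0, and was highest there apart from TPR D replicate 2. Its N/C ratio was 0.586, 0.412 and 0.617 in control, 0.816, 0.635 and 0.737 with TPR A, and 0.775, 0.557 and 0.609 with TPR D. The share of MRPS6 was thus higher in the cytoplasmic/ER than in the nuclear library of every culture, and the share of SLC5A3 was higher in the nuclear library wherever a ratio could be formed. Its own N/C change was 0.34 (SE 0.32, limma adjusted p = 0.999), and its change in the total fraction was -0.16 (SE 0.23, limma adjusted p = 0.760). With control replicate 2 left out these were 0.16 and 0.01.

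**Figure D3:**
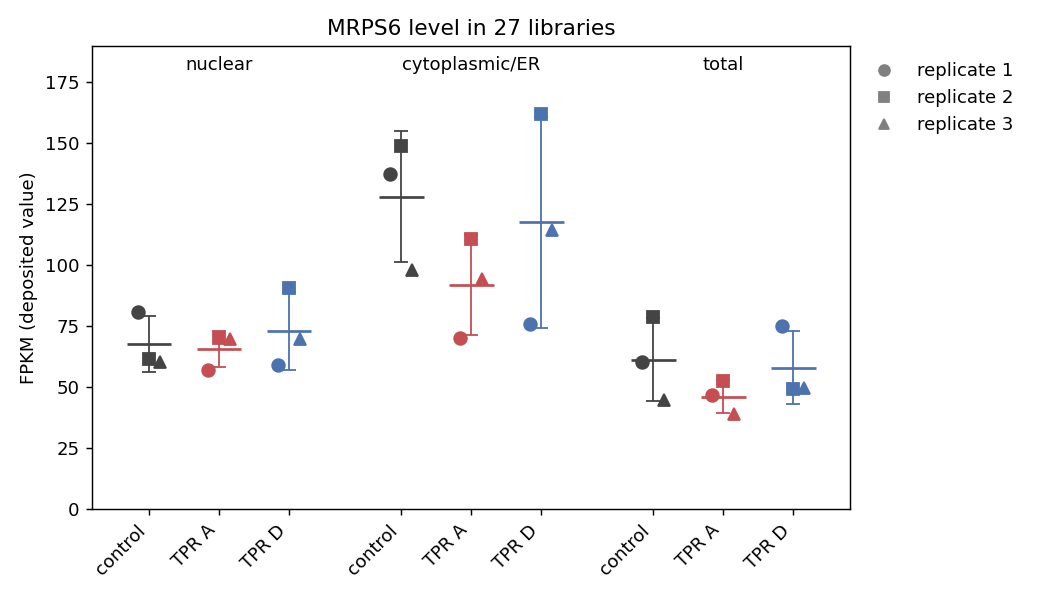
MRPS6 FPKM as deposited (y axis) in the 27 libraries, grouped by fraction and shRNA (x axis), with 1 point per library, a line at the mean and bars of 1 SD (n = 3). No library is at 0, and the control cytoplasmic/ER libraries sit between 97.8 and 149.

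The total fraction asks whether the amount of the mRNA changed, apart from where it was. SLC5A3 did not pass the test for either shRNA. For TPR A the log2 difference was -0.64 (SE 0.67, limma adjusted p = 0.724), and a 2-sided exact permutation test over the 3 and 3 cultures gave p = 0.2, where 0.1 is the smallest it can give. For TPR D the difference was 0.04 (SE 0.67, limma adjusted p = 0.984; exact permutation p = 0.9). For both together it was -0.30 (SE 0.58, limma adjusted p = 0.827), with an exact permutation p of 0.381 where 0.0119 is the smallest possible.

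In these comparisons limma called 0.821% of all genes with TPR A, 0.753% with TPR D and 1.14% over both, and SLC5A3 was not among them. These shares stand for 120, 110 and 166 genes, which became 41, 70 and 39 without control replicate 2. A fit blocked by replicate number called 378, 461 and 560. The SE of SLC5A3 in the main fit, 0.67 for TPR A, takes in all 9 groups, including the 2 libraries at 0. With only the total libraries of the groups compared in the fit, the SE fell to 0.34 for TPR A and the limma adjusted p was 0.549. Without control replicate 2 the difference was -0.98 for TPR A (SE 0.70, limma adjusted p = 0.838), -0.30 with TPR D and -0.64 over both shRNAs, with an exact permutation p of 0.107 for both. Replicate 1, whose labels are written in another style, gave -0.86 for both, and replicates 2 and 3 gave -0.02.

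The shRNAs were also compared with each other. All 3 TPR A total libraries were below all 3 TPR D ones, a log2 difference of -0.68 (SE 0.67, limma adjusted p = 0.999). The exact permutation p was 0.1, the smallest that 3 against 3 allows, so this comparison could not have passed 0.05 that way. With all 27 libraries in the fit, limma called 0.281% of all genes there. With only the TPR A and TPR D total libraries in it, the SE for SLC5A3 was 0.225. Its limma p was then 0.0177 unadjusted and 0.446 adjusted.

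Of the other genes of myo-inositol uptake, synthesis and breakdown, 6 were above 1 FPKM, and in the total fraction 1 of these 6 passed the test for both shRNAs, downward, beside the 1.14% of all genes. This was IMPA2, an inositol monophosphatase, which frees myo-inositol from its phosphate. Its total FPKM was 8.80, 9.49 and 8.77 in control, 4.94, 5.73 and 5.34 with TPR A, and 2.62, 2.26 and 3.21 with TPR D. The 3 groups did not overlap.

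IMPA2 fell by 1.17 on the log2 scale for both shRNAs (SE 0.20, limma adjusted p = 0.00574), and was lower in 6 of 6 libraries. For TPR D alone it fell by 1.64 (SE 0.23, limma adjusted p = 0.00096), and for TPR A the value was -0.69 (SE 0.23, limma adjusted p = 0.179). The difference between the shRNAs did not pass (0.96, SE 0.23, limma adjusted p = 0.0750). Without control replicate 2 the change for both was -1.16, with a limma adjusted p of 0.0420 (for TPR D -1.64, limma adjusted p = 0.00821; for TPR A -0.68, limma adjusted p = 0.428), and with only the total libraries in the fit the limma adjusted p was 0.104. Its N/C change was 0.12 (SE 0.28, limma adjusted p = 0.999).

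The other 5 members did not pass. Log2 differences in the total fraction for both shRNAs were -0.29 for IMPA1, the sister phosphatase, -0.23 for CDIPT, which makes phosphatidylinositol, -0.06 for SLC2A13, the proton-coupled myo-inositol transporter, -0.04 for ISYNA1, the synthase that makes inositol phosphate from glucose 6-phosphate, and 0.52 for MIOX, the oxygenase that breaks myo-inositol down. SLC5A11, the related cotransporter SMIT2, had a mean of 0.384 FPKM and was not tested. For the N/C change the median of the 6 was 0.04, beside 0.00 over all genes. None of the 6 had an unadjusted limma p under 0.05, beside 1.72% of all genes.

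The inositol phosphate kinases add phosphates to the products of this pathway. Among 10 tested members 0 were called by limma in the total fraction, beside 1.14% of all genes. ITPKC alone had an unadjusted p under 0.05 for both shRNAs (log2 difference -0.49, SE 0.22, limma adjusted p = 0.268), beside 16.1% of all genes at such a p. Their median change was -0.12 in the total fraction and 0.00 for N/C.

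Among genes of osmolyte transport and NFAT5 targets, 6 besides SLC5A3 were tested. In the total fraction 0 of the 6 passed in limma, beside 1.14% of all genes. An unadjusted limma p under 0.05 was found for 2 of the 6, beside 16.1% of all genes. The fit blocked by replicate number called 1 of the 6, NFAT5, beside 560 of all 14611 genes. NFAT5 itself stood at 6.77, 2.12 and 6.11 FPKM in the control total libraries, 10.3, 9.39 and 10.6 with TPR A, and 6.52, 12.7 and 11.2 with TPR D. TPR D replicate 1 lay within the control range and the other 5 above it. The log2 difference for both was 1.20 (SE 0.31, limma adjusted p = 0.0598), but without control replicate 2, which gave the lowest value, it was 0.65 (SE 0.26, limma adjusted p = 0.466). It passed with the replicate block (limma adjusted p = 0.0330), with a pseudocount of 1 (0.0427) and without control replicate 3 (0.0487). AKR1B1, the aldose reductase that makes sorbitol, had a difference of -0.66 (SE 0.22, limma adjusted p = 0.135), and of -0.39 without control replicate 2.

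The others of that list had total differences of -0.45 for SLC6A6, the taurine transporter, -0.25 for SLC38A2, an amino acid transporter, 0.15 for SGK1, a kinase of ion transport, and 0.16 for AQP1, a water channel. The betaine transporter SLC6A12, the chaperone HSPA4L and the urea transporter SLC14A2 were under 1 FPKM. For N/C the 6 had a median change of -0.23, with 0 called by limma, beside 0% of all genes. NFAT5 was the 1 with an unadjusted p under 0.05 (-1.08, SE 0.44, limma adjusted p = 0.999), beside 1.72% of all genes.

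Of the SLC5 family of sodium-coupled transporters, SLC5A3, SLC5A6 and SLC5A12 of 12 were above 1 FPKM. SLC5A6, which carries biotin and pantothenate, was the most abundant, with a mean of 41.4 FPKM, beside 2.83 for SLC5A3 and 1.13 for SLC5A12. Neither passed in the total fraction, with log2 differences of -0.60 for SLC5A6 (SE 0.28, limma adjusted p = 0.298) and -0.06 for SLC5A12. The N/C change was 0.17 for SLC5A6 and -0.04 for SLC5A12.

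Of 22 protein-coding and lncRNA neighbours within 500 kb, 11 were tested and 0 passed in either comparison. Over all genes 1.14% passed in the total fraction and 0% for N/C. In limma 0 had an unadjusted p under 0.05, beside 16.1% of all genes in the total fraction and 1.72% for N/C. In the total fraction the log2 differences were 0.48 for SMIM11, 0.25 for SON, a protein of nuclear speckles, 0.20 for ATP5PO, a subunit of the mitochondrial ATP synthase, 0.13 for ENSG00000249209, 0.09 for LINC00649, 0.05 for DONSON, -0.07 for ENSG00000273102, -0.08 for ITSN1, a scaffold of endocytosis, -0.16 for RCAN1, an inhibitor of calcineurin, and -0.21 for CRYZL1. Their N/C changes ran from -0.27 to 0.35, with a median of 0.02. The fitted N/C value of SLC5A3, -2.77, lay below that range, while with control replicates 1 and 2 left out it was 0.08. SLC5A3 was chosen by its N/C ratio, and the fitted value rests on control libraries listed at 0. Nothing is therefore read from its difference from the genes around it.

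**Figure D4:**
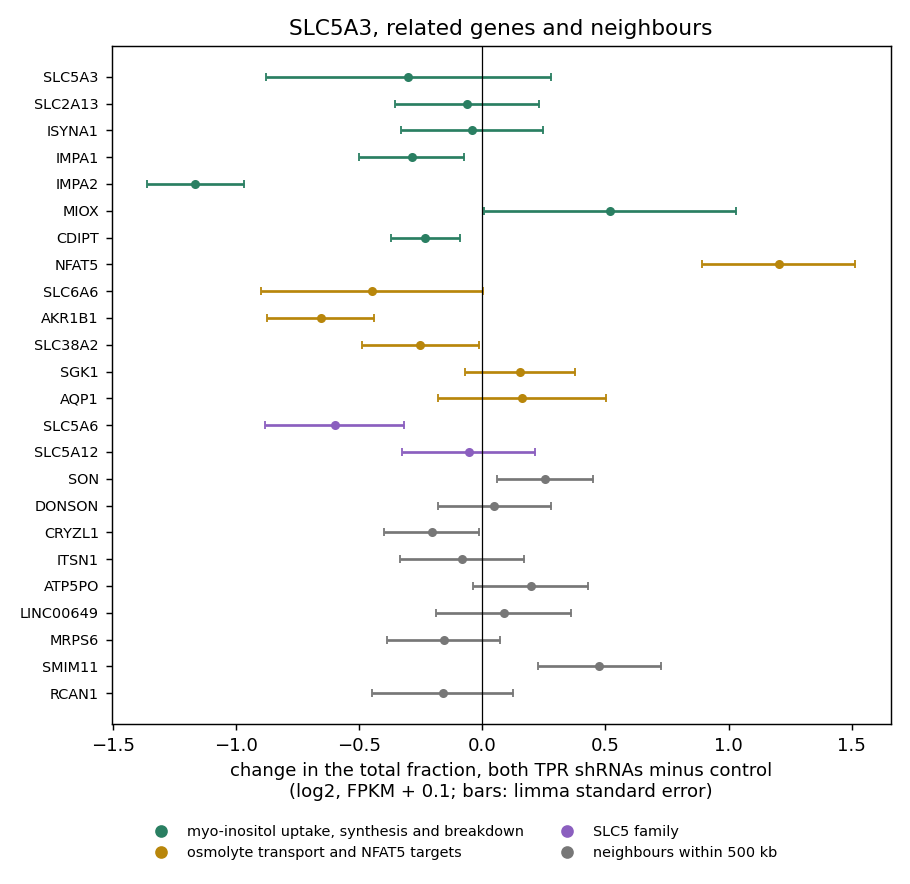
Log2 change in the total fraction for both TPR shRNAs minus control (x axis, log2 of FPKM + 0.1) for SLC5A3 and the tested named genes of its pathway, of osmolyte transport, of the SLC5 family and of its neighbourhood (y axis), with bars of 1 limma standard error; 2 unnamed neighbours are left out. IMPA2, at -1.17, is the gene that passed the test, and SLC5A3 sits at -0.30 with a wide bar.

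With control replicate 2 left out, the medians in the total fraction for both shRNAs were -0.30 for the myo-inositol genes, -0.07 for the kinases, -0.15 for the osmolyte genes, -0.31 for the SLC5 family and -0.03 for the neighbours. The medians of the N/C change were then 0.07, 0.02, -0.22, -0.03 and 0.03. IMPA2 remained the 1 member called by limma in the total fraction, beside 39 of all 14611 genes. An unadjusted limma p under 0.05 was found there for 1 of 6 myo-inositol genes, 2 of 10 kinases and 1 of 6 osmolyte genes. It was found for 0 of the SLC5 family and 0 of the neighbours, beside 1246 of all 14611 genes. For N/C 0 members were called, beside 0 of all genes. NFAT5 (-0.87) again had an unadjusted p under 0.05 for N/C, beside 108 of all 14611 genes.

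Structure was compared next, since SLC5A3 combines few exons with a long mRNA. The paper proposes a major role for the length of the pre-mRNA, the transcript before splicing, and this length was not matched. It is 32682 nt for SLC5A3, while some of the genes compared have a median of 1 exon. Besides SLC5A3, 72 tested protein-coding genes had a median of at most 2 exons and a median mRNA of at least 5000 nt. Their N/C changes for both shRNAs lay between -0.53 and 0.77, with a median of 0.07 beside 0.00 over all genes. In limma 0 of the 72 had an unadjusted p under 0.05, beside 1.72% of all genes. With control replicate 2 left out the N/C changes of the 72 lay between -0.43 and 0.72, with a median of 0.08. The lowest were RAP2A, a small GTPase (-0.53), GFOD1 (-0.48) and CREBZF, a bZIP transcription factor (-0.45). The highest were PGBD4 (0.77), CHST12, a chondroitin sulfotransferase (0.52), and TIGD5 (0.50). SLC5A3 was the lowest of the 73, and the only one listed at 0 in any library. It was chosen by a fall in its N/C ratio, so nothing is read from its place among them.

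**Figure D5:**
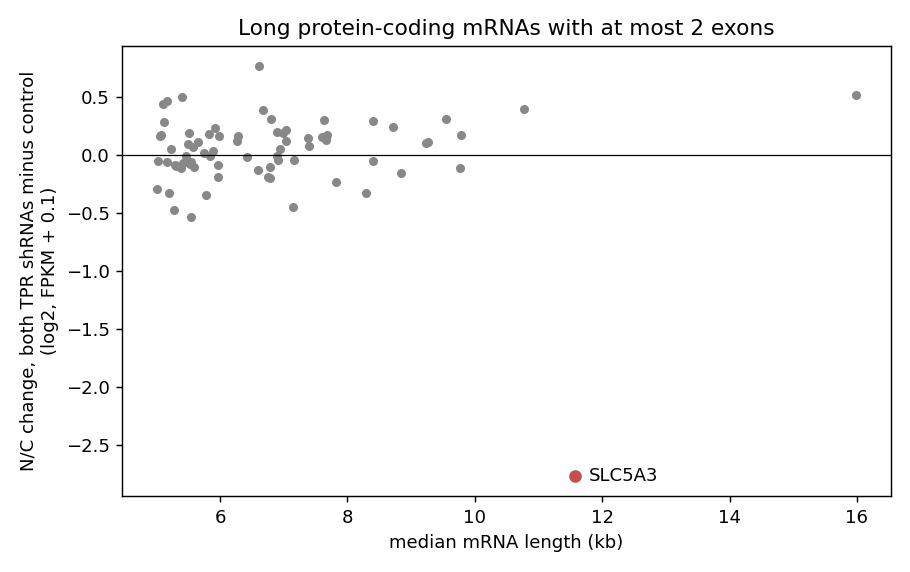
N/C change for both TPR shRNAs minus control (y axis, log2 of FPKM + 0.1) against median mRNA length in kb (x axis, linear) for the 73 tested protein-coding genes with at most 2 exons and at least 5000 nt. SLC5A3, whose value rests on 2 control libraries listed at 0, sits at -2.77, and the other 72 between -0.53 and 0.77.

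In the total fraction 5 of these 72 genes passed for both shRNAs, beside the 1.14% of all genes, and all 5 rose. They were MN1 (log2 difference 1.90), RAP2B (1.11), ZBTB43 (1.01), TENT5C (0.92) and FUT4 (0.62), and were named after their values were seen. Without control replicate 2, MN1 (1.92, limma adjusted p = 0.0475) and RAP2B (0.95, limma adjusted p = 0.0276) passed, beside 39 of all 14611 genes. With only the total libraries in the fit 0 of the 72 passed, beside 1 of all 14611 genes. The limma adjusted p was then 0.106 to 0.214 for the 5. In that fit 24 of the 72 had an unadjusted limma p under 0.05, beside 1916 of all 14611 genes. A fit blocked by replicate number called 13 of the 72, all upward, beside 560 of all 14611 genes (327 upward and 233 downward). The median of the 72 was 0.37, beside -0.01 over all genes, and 0.23 beside -0.02 without control replicate 2. SLC5A3, at -0.30, was below 0.

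The genes whose log2 level was most like that of SLC5A3 over the 27 libraries were PFKFB2 (Pearson's r of 0.902), PPP6R3 (0.896), UTRN (0.894), ITGAV (0.893) and ENSG00000259752 (0.893). The 27 libraries share fractions and cultures, and no r within a fraction was computed. ENSG00000259752, at a mean of 1.08 FPKM, was itself listed at 0 in control cytoplasmic/ER replicates 1 and 2, and in 3 libraries in all. The 2 libraries that listed SLC5A3 at 0 enter each of these r values. For the log2 N/C ratio over the 9 cultures the most alike were SLC7A2 (0.965), ENSG00000273014 (0.964), NFE2L1 (0.958), PTPRG (0.939) and FRK (0.925). The points fell in 2 sets, since the 2 control cultures listed at 0 stood at 5.52 and 5.95 for SLC5A3 and the other 7 between 0.971 and 2.004, so these r values are a match to that step and no more.

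None of the 5 genes most alike by N/C ratio was listed at 0 in any library. For NFE2L1, a transcription factor of proteasome genes at a mean of 344 FPKM, the log2 N/C ratio was 1.59 to 1.68 in control replicates 1 and 2 and 1.00 to 1.19 in the other 7 cultures. For SLC7A2, a transporter of cationic amino acids, it was 1.00 to 1.32 against -0.04 to 0.29. The same 2 control cultures were therefore the highest for these genes also, by far smaller steps. Control replicate 2 is among them, and its nuclear library was closer to the total libraries, so its N/C ratios rest on a label in doubt. These genes were picked for this likeness, so it does not support the step of SLC5A3.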

How the data were processed

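Poly(A)+ RNA of 27 U2OS libraries (3 shRNAs, 3 fractions, 3 replicates) was analysed. The authors quantified reads with Salmon against GENCODE 19 transcripts, summed them to genes with tximport and deposited FPKM values (per the labels: hg19, Salmon, DESeq2). FPKM are not counts, so the study's DESeq2 model was not repeated. Each library was rescaled by a median-of-ratios factor (0.954 to 1.06), and log2(FPKM + 0.1) was fitted with limma 3.58.1 (R 4.3.3; trend, 9 groups, Benjamini-Hochberg, threshold 0.05) on 14611 genes with a mean above 1 FPKM and no mitochondrial gene. Fold changes are on that scale, which understates low genes. The main fit had no term for culture, so the 3 libraries of 1 culture entered as independent. The SE and p of an N/C change are thus those of an unpaired comparison. Of the gene IDs, 32776 matched GENCODE 44 and 1688 did not. Depth was estimated on 7267 genes of 1 transcript, with 240 nt taken off each length, where 91.0% of low values lay within 0.1 of a whole read. The fit was tested on simulated data. Replicate numbers come from the labels. Deviations of same-numbered libraries correlated at 0.137 to 0.324 between control and TPR A total libraries, at 0.131 to 0.266 and 0.398 to 0.597 between the TPR A and TPR D nuclear and cytoplasmic/ER libraries, and not above 0.1 in every pair elsewhere. The study calls the replicates biological without saying how they were separated, so p-values measure the spread between these samples, which may in part be technical.

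Named genes were SLC5A3, TPR, MRPS6, tested members of the lists (kinases only at an unadjusted p under 0.05), the 3 lowest and highest N/C changes of like structure, and the 5 most alike by each r. Members and lists were chosen with earlier results of these data known. Exact permutation tests used the total libraries.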

Additional observations from a re-analysis of the deposited data

How the results depend on the processing

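The change of SLC5A3 in the total fraction stayed short of the threshold under every alternative run (other scaling, pseudocounts of 1 and 0.01, no minimum, no trend, only the groups compared, each culture left out). A minimum mean of 5 FPKM drops SLC5A3 and gave no value for it. For TPR D the sign turned with values as deposited (-0.0335), with no minimum (-0.0332), without control replicate 2 (-0.30) and without TPR D replicate 3 (-0.08), and the value ran from -0.30 to 0.26 as single cultures were left out.

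The N/C change of SLC5A3, a value with no test, moved with a pseudocount of 0.01 to -5.10 with TPR A, -4.64 with TPR D and -4.87 over both, with a pseudocount of 1 to -1.16 for both, and with control cultures 1 and 2 left out, an alternative chosen after seeing the data, to 0.0804. Leaving out single cultures gave -4.43 to -2.18, -3.95 to -1.71 and -4.19 to -1.95.

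Counts of genes called in the total fraction (120 with TPR A, 110 with TPR D, 166 over both) moved too. With a minimum mean of 5 FPKM they were 48, 44 and 78, with the replicate block 378, 461 and 560, and with only the groups compared 1, 5 and 1. An equal sum over genes gave 63 for TPR D. Without single cultures they ran from 4 to 167, 31 to 114 and 32 to 248, lowest without TPR A replicate 2, TPR D replicate 3 and control replicate 1. For the N/C change of both shRNAs 0 genes were called, with 251 at an unadjusted p under 0.05, against 1 with a pseudocount of 1 and 0 to 2 without single cultures. The replicate block changed no call for SLC5A3 (limma adjusted p = 0.769 for both) or TPR, and brought NFAT5 to 0.0330 and the difference of IMPA2 between the shRNAs to 0.0185. IMPA2 lost its call with only the groups compared (limma adjusted p = 0.104) and kept it under the other alternatives (0.00111 to 0.0471). NFAT5 passed with a pseudocount of 1 (0.0427) and without control replicate 3 (0.0487). The cause of these shifts was not tested. At the estimated depth 3 reads on SLC5A3 stood for at most 0.00838 FPKM. With 3 replicates a group the smallest exact p for 3 against 3 is 0.1.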
